A study of Rattus norvegicus with 6 samples.

Results

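Interferon-stimulated genes are the genes that cells switch on when an interferon binds its receptor. The 32 described here were chosen by symbol from common knowledge of this response, with earlier results of these data known. Each was found in 1 row among the 34538 named genes of the deposited tables. All 32 had enough counts to be tested, and the member with the fewest counts had 267 over the 6 libraries. RNA was sequenced from the middle of the fractured femur in rats of the outbred Sprague Dawley stock, all of them female. In both groups osteoporosis had been induced by removing both ovaries at 8 weeks of age, and the left femur was cut across its shaft 12 weeks later and fixed with an intramedullary nail of 1.2 mm. The control fractures were given the gel alone (Gel, 3 libraries), and the treated fractures were given MgPA-Gel (3 libraries), an injectable bone adhesive whose added component the title calls a coordination compound of plant phosphate. Neither the harvest time nor the number of animals behind a group's libraries is given in the sources used here. The tests therefore rest on the spread between libraries, which may be technical.

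Type I interferons signal through Ifnar1 and Ifnar2 to the kinases Jak1 and Tyk2, which leads to the assembly of a complex called ISGF3 that holds Stat2 and Irf9. ISGF3 binds the interferon-stimulated response element (ISRE) in front of most of these genes, whereas interferon gamma acts mainly through gamma-activated sites (GAS). The products limit viral replication, sense foreign nucleic acid, attract lymphocytes and damp the response again, and in bone interferon signalling is also known as a brake on osteoclast formation.

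No interferon-stimulated gene passed the test between MgPA-Gel and Gel. Their levels varied widely between libraries of the same group. Gel 2 held the highest level of its group in 26 of the 32 genes (32.3% of all tested genes), and MgPA-Gel 2 moved apart from its group in opposite directions. In MgPA-Gel 2, Ifit3, Oas3, Oasl, Isg15, Gbp2 and Ifit1 stood at least 2-fold above both other MgPA-Gel libraries, while Mx1, Mx2, Oas1a and Cxcl9 stood at least 2-fold below both. These are 6 and 4 of the 32 genes, and 5.12% and 4.52% of all tested genes did the same.

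Total counts ran from 13.6 to 18.2 M (mega) per library, and mitochondrially encoded genes took from 5.29 to 25.9% of them, with the highest shares in Gel 1 and MgPA-Gel 1. The osteoblast markers Col1a1, Spp1, Bglap and Ibsp were present in all 6 libraries, with Col1a1 at 31270 CPM or more. Muscle fibre markers ranged from 10.3 CPM in Gel 3 to 37080 CPM in MgPA-Gel 1, summed over the 8 found. Levels are CPM, counts per M counts on library sizes adjusted by TMM (trimmed mean of M values). They compare libraries, not genes, and genes are compared only in FPKM, the deposited value per length. A positive log2 fold change means a higher level with MgPA-Gel, and its error is the SE (n = 3 libraries per group). In bulk tissue, fewer cells of a type and less RNA per cell cannot be told apart.

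Promoter sequence is shown because ISGF3 acts through a short element in front of its target genes. RefSeq promoter windows of the GRCr8 build, from 250 bases before the start to 50 after, were held for 25 of the 32 genes. An ISRE core (TTTC, 2 bases of any kind, TTTC, or its reverse complement with GAAA in place of TTTC) was present in 16 of the 25 (64.0%), against 1312 of all 33469 windows (3.92%). A GAS core, TTCNNNGAA on either strand, was present in 6 of the 25 (24.0%), against 2970 of 33469 windows (8.87%). In Bst2 the GAS core overlaps an ISRE core. The windows below are read on the strand of the gene and show genes that stood high (Ifit3, Oas3, Gbp2) or low (Oas1a) in MgPA-Gel 2, a gene highest in Gel 2 (Irf7), a gene highest in Gel 1 (Rsad2) and the GAS core of Irf1. Capitals mark the motif core.
Ifit3, ISRE, chr1:241527262-241527311, plus strand: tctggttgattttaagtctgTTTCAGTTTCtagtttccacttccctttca
Oas3, ISRE, chr12:41439617-41439666, plus strand: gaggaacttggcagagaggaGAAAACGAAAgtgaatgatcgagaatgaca
Gbp2, ISRE, chr2:234005676-234005725, plus strand: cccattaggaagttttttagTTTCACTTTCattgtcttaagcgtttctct
Oas1a, 2 overlapping ISRE cores, chr12:41330405-41330460, plus strand: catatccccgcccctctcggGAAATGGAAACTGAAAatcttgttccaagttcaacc
Irf7, ISRE, chr1:205800063-205800112, minus strand: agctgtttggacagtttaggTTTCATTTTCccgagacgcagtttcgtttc
Rsad2, ISRE, chr6:48788238-48788287, minus strand: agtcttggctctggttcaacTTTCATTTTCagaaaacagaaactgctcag
Irf1, GAS, chr10:38417773-38417821, plus strand: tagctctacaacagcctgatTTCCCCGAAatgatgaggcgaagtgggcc
The first base of the core lies 44 bases before the start in Ifit3, 95 in Oas3, 31 in Gbp2, 69 in Irf7, 147 in Rsad2 and 142 in Irf1, and the 2 cores of Oas1a begin 41 and 35 bases before it. Genes of both directions carried the core. Of the 6 genes high in MgPA-Gel 2, 4 had a window and 3 of these held an ISRE core, and of the 4 low ones, 3 had a window and 1 held a core. A match describes the letters of the window and does not show that a factor binds there.

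Between the groups, 0 of the 32 genes passed an adjusted p of 0.05 (edgeR's quasi-likelihood test with Benjamini-Hochberg adjustment over 14818 genes), and each had an adjusted p of 0.998 or more. Across all genes the same test called 0 of 14818 (0%). DESeq2 also called 0 of the 32, with 10 genes called in the whole table (0.0675%), but gave no p-value for Ifit3. At an unadjusted p under 0.05 stood 1 of the 32 genes, Ifit2, against 2.63% of all tested genes (389). That count was 3 with DESeq2, where 643 of all 14818 tested genes were under 0.05. With each library left out it ran from 0 to 5. It was 5 without Gel 2, where 409 of all 15303 tested genes were under 0.05. It was 4 without MgPA-Gel 1 (635 of 15171) or MgPA-Gel 3 (671 of 15274). It was 0 without Gel 1 (221 of 15331), Gel 3 (212 of 15338) or MgPA-Gel 2 (756 of 15322). The group mean was higher with MgPA-Gel in 20 of the 32 and lower in 12, and 54.8% of all tested genes had a positive log2 fold change. The median log2 fold change of the 32 was 0.17, beside 0.03 over all genes, and it was 0.43 without Gel 2 and 0.035 without Gel 3. The range ran from -0.89 ± 0.74 for Rsad2 to 2.82 ± 1.52 for Oas3.

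**Figure D1:**
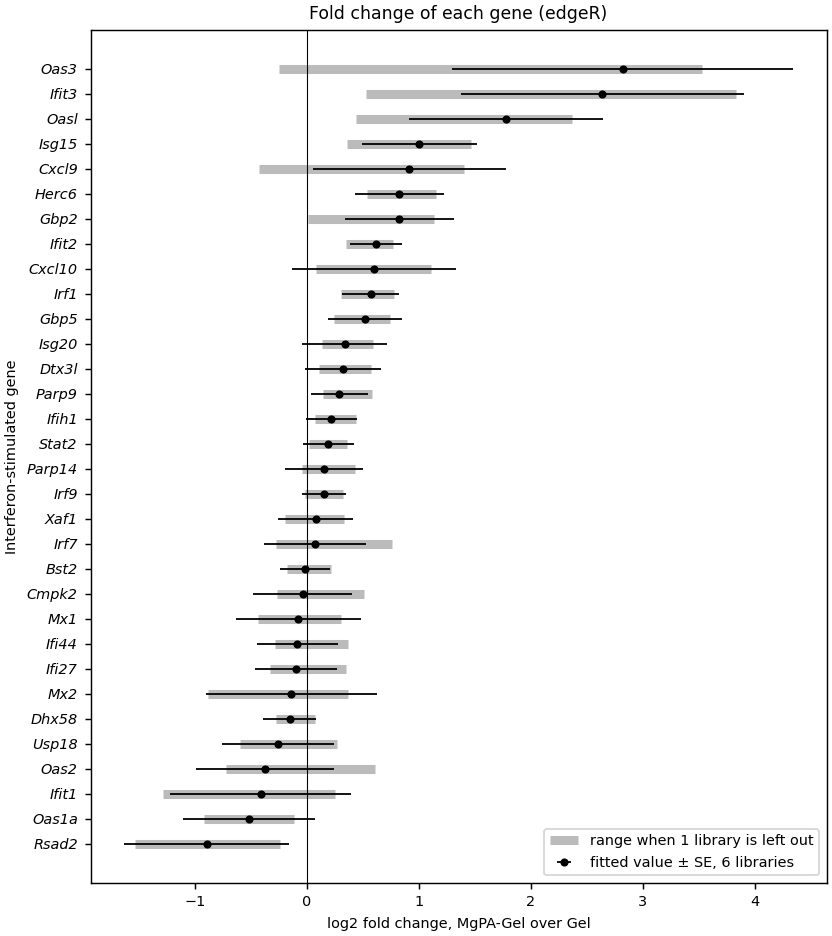
Log2 fold change of each of the 32 genes (MgPA-Gel over Gel, n = 3 libraries per group), ordered by fold change. Thin black bars are ± 1 SE, and wide grey bars are the range when 1 library is left out. Estimates run from -0.89 for Rsad2 to 2.82 for Oas3, and no gene passes the adjusted threshold.

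The order of libraries was shared by many of the genes in Gel, and less so in MgPA-Gel. Within Gel, the highest level was in Gel 2 for 26 of the 32 genes, in Gel 1 for 5 and in Gel 3 for 1, where all tested genes give 32.3, 31.6 and 36.0%. The lowest was in Gel 3 for 24, against 36.5%. Within MgPA-Gel, the highest level was in MgPA-Gel 2 for 16 genes, in MgPA-Gel 1 for 9 and in MgPA-Gel 3 for 7, where all genes give 37.0, 38.3 and 24.7%. The lowest was in MgPA-Gel 1 for 13, in MgPA-Gel 2 for 11 and in MgPA-Gel 3 for 8, where all genes give 41.0, 32.8 and 26.2%. Among all 6 libraries, 12 genes peaked in Gel 2 and 13 in MgPA-Gel 2, against 8.61 and 23.0% of all genes. Gel 3 held 0 of the peaks (17.4% of all genes) and 14 of the lowest values (16.8%). MgPA-Gel 2 held 7 of the lowest values (19.3%) and MgPA-Gel 1 held 4 (28.3%).

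**Figure D2:**
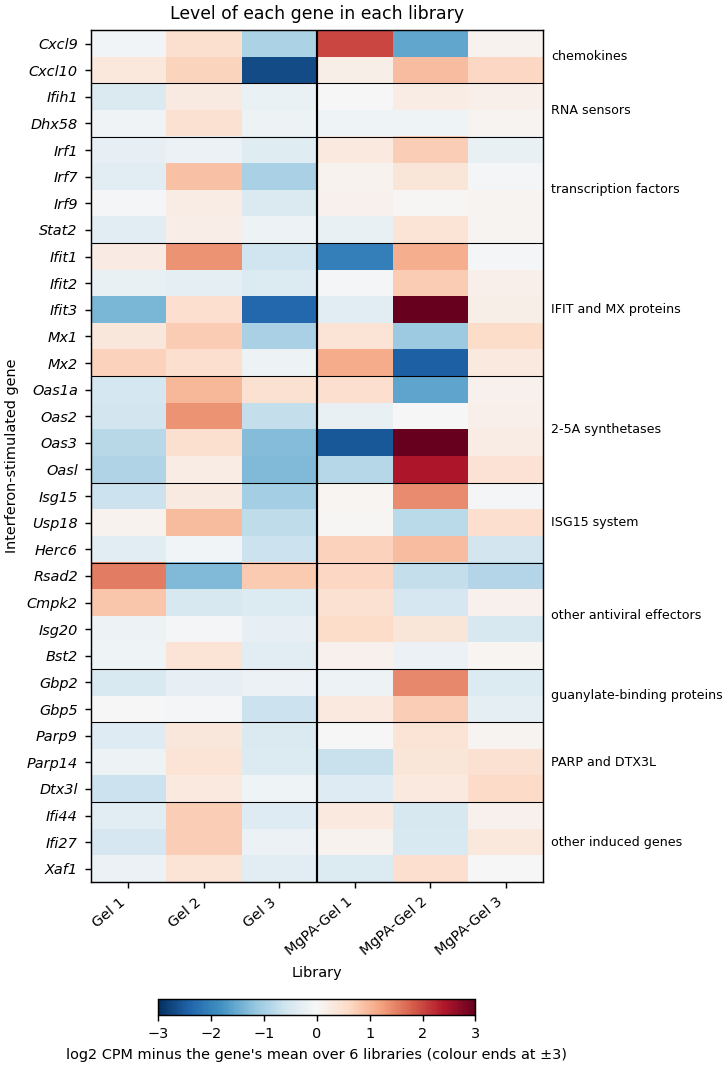
Level of each of the 32 genes in each library, as log2 CPM minus the gene's mean over the 6 libraries, with genes in rows by role and libraries in columns. Gel 2 is high and Gel 3 low for most genes. MgPA-Gel 2 is the highest of its group for 16 genes and the lowest for 11.

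The shift of Gel 2 and Gel 3 did not rest on the TMM factors. With median-of-ratios factors or the deposited FPKM the counts of ordered genes were identical, although the FPKM library sizes lie close to the TMM ones and are not an independent scaling. Per total count, Gel 2 was highest in its group in 30 genes and Gel 3 lowest in 20, and per count outside the mitochondrial genes these were 27 and 25. The sets of 6 genes high and 4 genes low in MgPA-Gel 2 were the same under all 5 scalings. The mean level of the 32 genes, as centred log2 CPM, ran from -0.56 (Gel 3) over -0.18 (Gel 1) to 0.34 (Gel 2), and with MgPA-Gel it was 0.0041, 0.34 and 0.07 in libraries 1, 2 and 3. The Gel range enclosed the MgPA-Gel range, at the top only narrowly (0.3388 in Gel 2 against 0.3356 in MgPA-Gel 2). The summed CPM of the 32 genes was instead highest in MgPA-Gel 2 (1458) and next in Gel 2 (1230). Single genes weigh heavily in these sums. Ifit3 gave 413 CPM in MgPA-Gel 2 and 55.5 CPM in Gel 2, and Ifi27 gave 198 and 449 CPM in that order.

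The genes differed widely in abundance per length. Ifi27, a small hydrophobic protein of mitochondria and the nuclear envelope, was highest at a mean of 356 FPKM over the 6 libraries, followed by Bst2 at 55.9, Ifit3 at 45.9, Irf7 at 23.9, Irf9 at 21.7 and Gbp2 at 21.5 FPKM. The lowest were Cmpk2 at 2.16, Oas3 at 1.93 and Oas2 at 0.939 FPKM. The largest ratio of highest to lowest library in CPM was 91.1 for Oas3 and 53.6 for Ifit3, and the smallest were 1.53 for Dhx58 and 1.58 for Irf9. Of the 32 genes, 10 spanned 5-fold or more, against 15.1% of all tested genes.

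**Figure D3:**
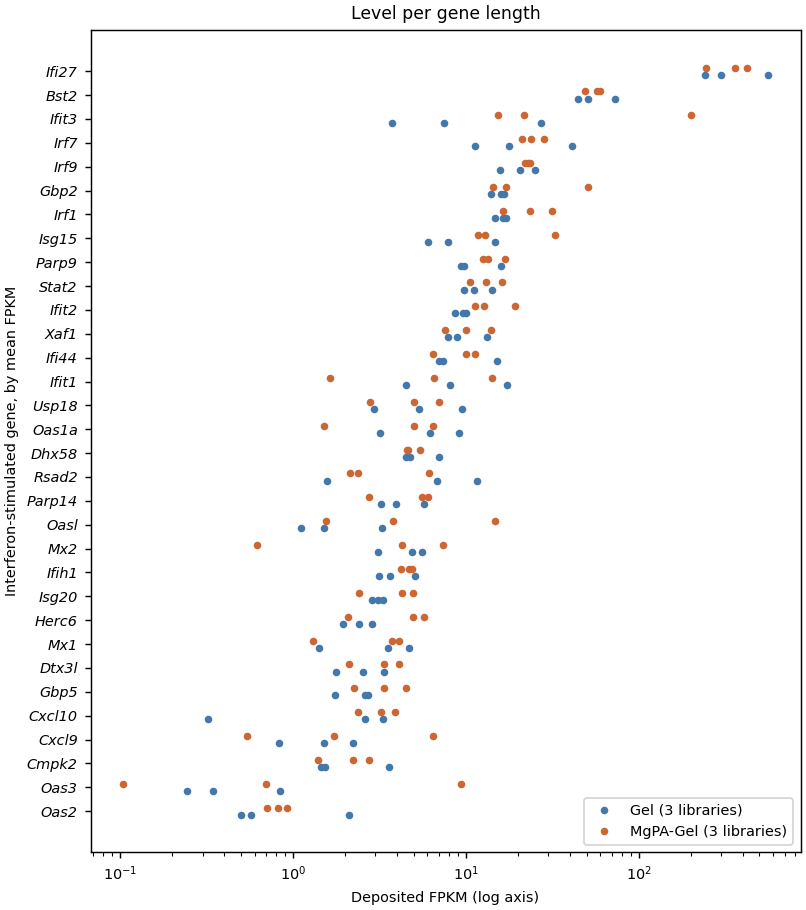
Deposited FPKM of each of the 32 genes in each library, on a log axis, ordered by the mean over the 6 libraries. Ifi27 leads at a mean of 356 FPKM, and the widest spreads are those of Ifit3 and Oas3.

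Among the transcription factors, Irf7, which amplifies type I interferon production, was at 34.8, 80.9 and 22.3 CPM in Gel 1, 2 and 3, and with MgPA-Gel at 47.0, 56.5 and 41.7 CPM in libraries 1, 2 and 3. Gel 2 was the highest of all 6 libraries and Gel 3 the lowest, so the Gel range enclosed the MgPA-Gel range (log2 fold change 0.07 ± 0.46). Irf1, which acts downstream of interferon gamma and carries the GAS core shown above, was at 33.2, 34.9 and 30.3 CPM in Gel 1, 2 and 3, and with MgPA-Gel at 47.8, 65.1 and 33.4 CPM in libraries 1, 2 and 3. The groups overlapped through MgPA-Gel 3 and Gel 2, the log2 fold change was 0.57 ± 0.25 with an unadjusted p of 0.0598, and it was 0.30 without MgPA-Gel 2. Irf9, the DNA-binding part of ISGF3, had 32.8, 40.1 and 25.4 CPM in Gel against 37.6, 35.3 and 36.2 CPM in MgPA-Gel, replicates in that order (0.15 ± 0.20). Stat2, its partner, had 39.2, 57.1 and 44.8 CPM in Gel against 42.6, 66.1 and 52.7 CPM in MgPA-Gel (0.19 ± 0.23, and 0.02 without MgPA-Gel 2), with Gel 2 and MgPA-Gel 2 highest in their groups. Irf7 overlaps 65 bp of Phrf1, and since strandedness is not stated, reads from that stretch cannot be assigned.

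Neither RNA sensor passed the test. Ifih1, the MDA5 sensor of long double-stranded RNA, was at 12.1, 19.8 and 14.2 CPM in Gel 1, 2 and 3, and with MgPA-Gel at 16.4, 19.1 and 18.1 CPM in libraries 1, 2 and 3 (log2 fold change 0.22 ± 0.23). Dhx58, the LGP2 helper of that sensor family, was at 12.4, 18.3 and 12.0 CPM in Gel 1, 2 and 3, and with MgPA-Gel at 12.1, 12.1 and 14.2 CPM in libraries 1, 2 and 3 (-0.15 ± 0.24). Both were highest in Gel 2, and in both the groups overlapped.

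The IFIT genes, which lie close together on chromosome 1 and encode RNA-binding inhibitors of viral translation, took different courses. Ifit3 (gene ID ENSRNOG00000022839, chr1:252906234-252911382 in the files, build not given in the sources used here) was at 15.1, 55.5 and 7.70 CPM in Gel 1, 2 and 3, and with MgPA-Gel at 31.2, 413 and 44.3 CPM in libraries 1, 2 and 3. MgPA-Gel 2 was 9.32 times the next MgPA-Gel library, and the other 2 overlapped the Gel range (26.1 ± 25.7 CPM in Gel against 163 ± 217 CPM in MgPA-Gel, SD, n = 3 each). The log2 fold change of 2.64 ± 1.26 became 0.53 without MgPA-Gel 2. Ifit2 (ENSRNOG00000036604, chr1:252894663-252900726) was at 33.8, 32.7 and 29.6 CPM in Gel 1, 2 and 3, and with MgPA-Gel at 38.4, 66.1 and 43.4 CPM in libraries 1, 2 and 3. All 3 MgPA-Gel libraries lay above all 3 Gel libraries, the 1 gene of the 32 without overlap, against 6.88% of all tested genes, of which 3.26% were higher and 3.62% lower with MgPA-Gel. Its means were 32.0 ± 2.16 CPM in Gel against 49.3 ± 14.8 CPM in MgPA-Gel (SD, n = 3 each), with a log2 fold change of 0.62 ± 0.23, an unadjusted p of 0.0318 and 0.35 without MgPA-Gel 2. Ifit1 (ENSRNOG00000019050, chr1:252944103-252946170) was at 16.7, 35.7 and 9.31 CPM in Gel 1, 2 and 3, and with MgPA-Gel at 3.38, 29.5 and 13.5 CPM in libraries 1, 2 and 3 (-0.41 ± 0.81). It was highest in Gel 2 and lowest in MgPA-Gel 1, a different order from its neighbours.

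The MX proteins are interferon-induced GTPases related to dynamin that trap viral particles, and both genes lie on chromosome 11. Mx1 (chr11:37891156-37914983) was at 11.7, 15.5 and 4.69 CPM in Gel 1, 2 and 3, and with MgPA-Gel at 12.3, 4.35 and 13.6 CPM in libraries 1, 2 and 3. Mx2 (chr11:38035450-38059950) was at 16.2, 14.3 and 9.09 CPM in Gel 1, 2 and 3, and with MgPA-Gel at 21.7, 1.83 and 12.4 CPM in libraries 1, 2 and 3. MgPA-Gel 2 was the lowest of the 6 libraries for both, at 0.319 and 0.0844 times the higher of the other 2 MgPA-Gel libraries. The log2 fold changes were -0.07 ± 0.56 and -0.14 ± 0.76, and without MgPA-Gel 2 they were 0.28 and 0.36.

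The oligoadenylate synthetases, which answer double-stranded RNA by making the activator of RNase L, divided within 1 gene cluster on chromosome 12. Oas3 (ENSRNOG00000059207, chr12:41316764-41336562) was at 1.03, 2.54 and 0.733 CPM in Gel 1, 2 and 3, and with MgPA-Gel at 0.313, 28.5 and 2.11 CPM in libraries 1, 2 and 3. MgPA-Gel 2 was 13.5 times the next MgPA-Gel library and MgPA-Gel 1 was the lowest of all 6, and the log2 fold change of 2.82 ± 1.52 became -0.25 without MgPA-Gel 2. Oas1a (ENSRNOG00000001369, chr12:41200718-41211909) was at 6.44, 18.5 and 12.6 CPM in Gel 1, 2 and 3, and with MgPA-Gel at 13.1, 3.09 and 10.1 CPM in libraries 1, 2 and 3. MgPA-Gel 2 was its lowest library, at 0.237 times the higher of the other 2 MgPA-Gel libraries (-0.51 ± 0.59, and -0.11 without MgPA-Gel 2). Oas2 (chr12:41340815-41363161), between 1.47 and 6.12 CPM, was highest in Gel 2 and had 1.64, 6.12 and 1.47 CPM in Gel against 2.06, 2.40 and 2.69 CPM in MgPA-Gel (-0.37 ± 0.61). Oasl, a member of the same family by sequence, was at 4.11, 8.95 and 3.08 CPM in Gel 1, 2 and 3, and with MgPA-Gel at 4.25, 41.0 and 10.4 CPM in libraries 1, 2 and 3. Like Oas3 and unlike Oas1a, it was highest in MgPA-Gel 2. Its log2 fold change of 1.78 ± 0.86 became 0.44 without MgPA-Gel 2. The OAS1, IFIT, MX and GBP families hold close paralogs, so counts of single members are uncertain where reads could be shared.

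**Figure D4:**
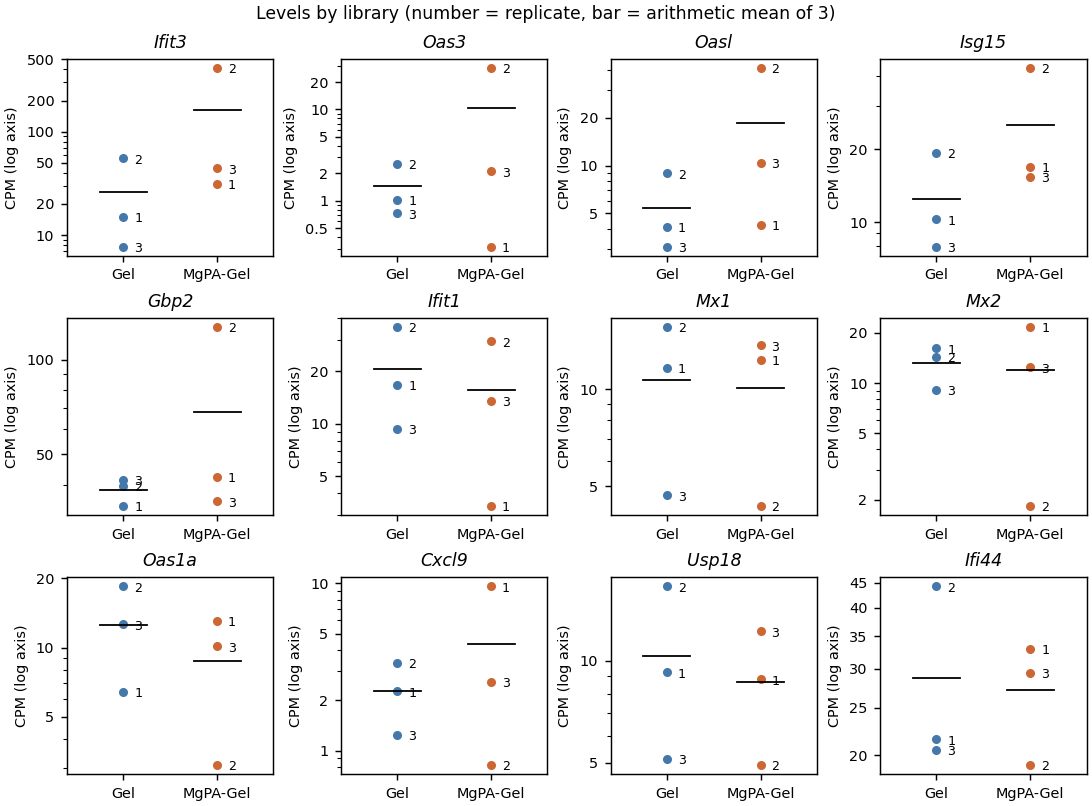
CPM of 12 of the genes in each library (log axis, points numbered by replicate, line at the arithmetic mean of 3). MgPA-Gel 2 lies at the top of its group for Ifit3, Oas3, Oasl, Isg15, Gbp2 and Ifit1 and at the bottom for Mx1, Mx2, Oas1a, Cxcl9, Usp18 and Ifi44.

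Genes of the ISG15 system, a ubiquitin-like tag with its enzymes, were also unlike each other. Isg15, the tag itself, was at 10.3, 19.4 and 7.92 CPM in Gel 1, 2 and 3, and with MgPA-Gel at 16.9, 43.2 and 15.4 CPM in libraries 1, 2 and 3. MgPA-Gel 2 was the highest library, and the other 2 MgPA-Gel libraries lay inside the Gel range (1.01 ± 0.51, and 0.36 without MgPA-Gel 2). Usp18, which removes the tag and blocks signalling at the type I receptor, was at 9.25, 16.6 and 5.13 CPM in Gel 1, 2 and 3, and with MgPA-Gel at 8.81, 4.92 and 12.2 CPM in libraries 1, 2 and 3 (-0.26 ± 0.50). Usp18 was lowest of all in MgPA-Gel 2, where Isg15 was highest. Herc6, the main ligase of the tag in mouse, had 8.56, 10.3 and 6.96 CPM in Gel against 17.6, 20.8 and 7.43 CPM in MgPA-Gel (0.83 ± 0.40, and 0.54 without MgPA-Gel 2), with MgPA-Gel 1 and 2 above all Gel libraries and MgPA-Gel 3 within them.

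Of the other antiviral effectors, Rsad2 (viperin, which makes a chain-terminating nucleotide) had the lowest fold change of the 32. Rsad2 was at 41.9, 5.78 and 24.8 CPM in Gel 1, 2 and 3, and with MgPA-Gel at 22.3, 8.83 and 7.84 CPM in libraries 1, 2 and 3, highest in Gel 1 and lowest in Gel 2, and the log2 fold change of -0.89 ± 0.74 became -0.24 without Gel 1. The 3 libraries highest in Rsad2 (Gel 1, Gel 3 and MgPA-Gel 1) were also the 3 highest in summed erythroid markers, which were at 7680, 339 and 5797 CPM in Gel against 10400, 1979 and 894 CPM in MgPA-Gel, and the part of these cells in the result was not tested. Cmpk2, the mitochondrial nucleotide kinase encoded beside Rsad2, had 13.7, 5.55 and 5.86 CPM in Gel against 10.6, 5.43 and 8.49 CPM in MgPA-Gel (-0.04 ± 0.44), also highest in Gel 1. Bst2 (tetherin, which holds budding virus at the cell surface) had 42.4, 61.4 and 37.2 CPM in Gel against 50.3, 41.0 and 47.9 CPM in MgPA-Gel (-0.02 ± 0.22), with the MgPA-Gel values inside the Gel range. Isg20, an RNA exonuclease, had 2.67, 2.89 and 2.49 CPM in Gel against 4.31, 3.79 and 2.11 CPM in MgPA-Gel (0.34 ± 0.38).

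The guanylate-binding proteins attack vacuoles that hold microbes, and their genes respond strongly to interferon gamma. Gbp2 was at 34.3, 39.7 and 41.6 CPM in Gel 1, 2 and 3, and with MgPA-Gel at 42.4, 127 and 35.5 CPM in libraries 1, 2 and 3. MgPA-Gel 2 was 2.99 times the next MgPA-Gel library and the other 5 libraries lay within 34.3 to 42.4 CPM, so the log2 fold change of 0.83 ± 0.49 was 0.01 without MgPA-Gel 2. Gbp5 had 8.43, 8.15 and 5.42 CPM in Gel against 10.5, 14.1 and 6.96 CPM in MgPA-Gel (0.52 ± 0.33, and 0.25 without MgPA-Gel 2), with the same library highest.

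Parp9 and Dtx3l, an ADP-ribosyltransferase and the ubiquitin ligase it works with, and Parp14, a related enzyme, lie on chromosome 11. Parp9 had 30.6, 50.5 and 29.8 CPM in Gel against 39.8, 53.6 and 42.3 CPM in MgPA-Gel. Dtx3l had 8.70, 16.6 and 12.5 CPM in Gel against 10.4, 16.8 and 20.2 CPM in MgPA-Gel, with MgPA-Gel 3 highest. Parp14 had 28.1, 41.2 and 23.3 CPM in Gel against 19.7, 40.4 and 43.1 CPM in MgPA-Gel, with MgPA-Gel 1 lowest and MgPA-Gel 3 highest. Their log2 fold changes were 0.29 ± 0.26, 0.32 ± 0.34 and 0.16 ± 0.35, all smaller than the span between Gel libraries. In all 3 genes Gel 2 was the highest of its group.

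Of the remaining induced genes, Ifi27 was at 192, 449 and 239 CPM in Gel 1, 2 and 3, and with MgPA-Gel at 289, 198 and 335 CPM in libraries 1, 2 and 3. Gel 2 was highest and MgPA-Gel 2 second lowest (-0.10 ± 0.37). Ifi44, a cytoplasmic protein of the response, had 21.6, 44.3 and 20.5 CPM in Gel against 33.0, 19.1 and 29.4 CPM in MgPA-Gel (-0.08 ± 0.36), with the same library on top and MgPA-Gel 2 lowest. Xaf1, a partner of the apoptosis inhibitor XIAP, had 7.26, 10.8 and 6.45 CPM in Gel against 6.19, 11.6 and 8.14 CPM in MgPA-Gel (0.08 ± 0.33). Ifi27 and Ifi44 were among the 9 of the 32 genes for which Gel 2 was highest and MgPA-Gel 2 lowest of their groups, an order found in 6.98% of all tested genes, and 13 had both on top, against 16.5%.

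The chemokines Cxcl9 and Cxcl10, which attract T cells and natural killer cells through Cxcr3, differed widely within the groups. Cxcl9 was at 2.26, 3.35 and 1.25 CPM in Gel 1, 2 and 3, and with MgPA-Gel at 9.63, 0.820 and 2.58 CPM in libraries 1, 2 and 3, highest in MgPA-Gel 1 and lowest in MgPA-Gel 2, and its log2 fold change of 0.92 ± 0.87 was -0.43 without MgPA-Gel 1. Cxcl10 was at 2.95, 3.76 and 0.366 CPM in Gel 1, 2 and 3, and with MgPA-Gel at 2.69, 4.48 and 3.63 CPM in libraries 1, 2 and 3 (0.60 ± 0.73), with Gel 3 alone under 1 CPM, and its log2 fold change was 0.09 without Gel 3. The span of Cxcl10 lies wholly inside that of Art3 on the opposite strand (2198 bp). Overlap of their exons was not examined and strandedness is not stated, so the reads they may share are not known.

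The interferons themselves were at or near 0. Of 12 ligand genes listed, 11 were found, 9 were at a count of 0 in every library, and none had enough counts to be tested. Ifnb1 had a count of 0 in each library and Ifng had 1 count, in MgPA-Gel 3. Ifne had 2 counts in Gel 2, 1 in Gel 3 and 3 in MgPA-Gel 3, and its sum with Ifng was at most 0.234 CPM in any library.

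Receptors and signal carriers were highest in MgPA-Gel 2 for most of their genes, with 0 of 6 receptors and 0 of 10 JAK-STAT genes called. Among the receptors 5 had a higher and 1 a lower mean with MgPA-Gel (median log2 fold change 0.35), and among the JAK-STAT genes 9 and 1 (0.26). MgPA-Gel 2 was the highest of all 6 libraries in 10 of 10 JAK-STAT genes and 4 of 6 receptors, against 23.0% of all tested genes. Socs3, an inhibitor of JAK kinases that several cytokines induce, was at 60.0, 118 and 44.2 CPM in Gel 1, 2 and 3, and with MgPA-Gel at 40.8, 1316 and 101 CPM in libraries 1, 2 and 3 (2.72 ± 1.33, and -0.06 without MgPA-Gel 2). Jak2, the kinase of the interferon gamma receptor among others, had 118, 189 and 120 CPM in Gel against 98.4, 433 and 142 CPM in MgPA-Gel (0.66 ± 0.56, and -0.25 without MgPA-Gel 2). Both were highest in MgPA-Gel 2. Stat3 had 210, 235 and 206 CPM in Gel against 173, 358 and 226 CPM in MgPA-Gel (0.22 ± 0.28, and -0.12 without MgPA-Gel 2), and Jak1 had 195, 226 and 210 CPM in Gel against 153, 273 and 190 CPM in MgPA-Gel (-0.03 ± 0.24, and -0.30 without it). These 2 were highest in the same library. Ifnar1 and Ifnar2, the type I receptor chains, had log2 fold changes of 0.19 ± 0.27 and 0.31 ± 0.29 (0.07 and 0.03 without MgPA-Gel 2). Ifngr1 and Ifngr2, the chains of the interferon gamma receptor, had 0.39 ± 0.36 and 0.64 ± 0.34 (-0.13 and 0.29 without MgPA-Gel 2), and Il10rb, a chain of the type III receptor, had -0.10 ± 0.19.

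Of 15 nucleic acid sensing genes found, 0 were called, 11 had a higher and 4 a lower mean with MgPA-Gel, and the median log2 fold change was 0.14. Irf3, which is activated by these sensors, had 28.6, 37.1 and 33.8 CPM in Gel against 61.4, 49.2 and 38.8 CPM in MgPA-Gel. Its groups did not overlap, as in 6.88% of all tested genes (3.26% higher), and it was the 1 gene of the 15 to do so. The log2 fold change was 0.59 ± 0.21 with an unadjusted p of 0.0295, where 2.63% of all tested genes were under 0.05. Myd88, the adaptor of Toll-like receptors, had 32.8, 52.5 and 41.6 CPM in Gel against 36.6, 127 and 49.0 CPM in MgPA-Gel (0.74 ± 0.48, and 0.01 without MgPA-Gel 2), with MgPA-Gel 2 highest. Unc93b1, which carries Toll-like receptors to endosomes, and Irf5 had log2 fold changes of 0.13 ± 0.29 and 0.04 ± 0.20. Of 51 further interferon-induced genes tested, 0 were called, 30 had a higher and 21 a lower mean (median 0.05), and 2 had groups that did not overlap, both higher with MgPA-Gel, where 6.88% of all tested genes did not overlap and 3.26% were higher. The first was B2m, the light chain of MHC class I, at 1062, 1286 and 1021 CPM in Gel 1, 2 and 3, and with MgPA-Gel at 1424, 1540 and 1341 CPM in libraries 1, 2 and 3 (0.35 ± 0.21). The other, named after its values were seen, was Cd274, the checkpoint ligand PD-L1, at 5.96, 7.45 and 3.52 CPM in Gel 1, 2 and 3, and with MgPA-Gel at 10.4, 77.9 and 7.84 CPM in libraries 1, 2 and 3 (2.50 ± 0.97, and 0.68 without MgPA-Gel 2). MgPA-Gel 2 stood far above the other libraries in Cd274, and the B2m libraries lay closer together. The abundant Ifitm3, Ifitm2 and Ifi30 had log2 fold changes of 0.06 ± 0.18, 0.00 ± 0.16 and 0.04 ± 0.28.

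**Figure D5:**
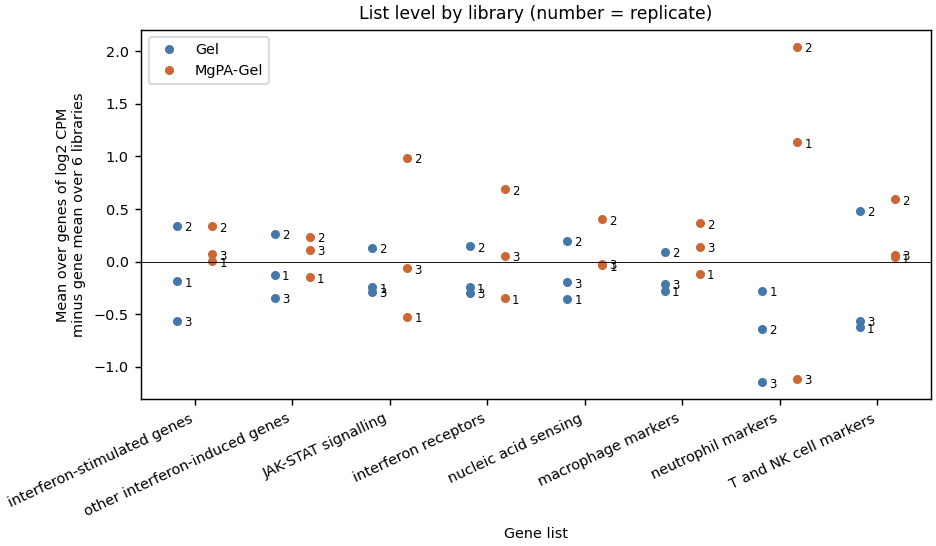
Mean level of each gene list in each library, as log2 CPM centred on each gene's mean over the 6 libraries. The interferon-stimulated genes lie between -0.56 in Gel 3 and 0.34 in Gel 2 and MgPA-Gel 2, and the JAK-STAT genes reach 0.99 in MgPA-Gel 2.

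Markers of several cell types differed between the same libraries, with 0 genes of any marker list called. Neutrophil markers summed to 83.5 to 292 CPM in Gel and to 201 to 2803 CPM in MgPA-Gel, with the top value in MgPA-Gel 2, where 6 of 10 tested markers were highest of all libraries. Among them, S100a9 was at 88.0, 147 and 26.9 CPM in Gel 1, 2 and 3, and with MgPA-Gel at 371, 1229 and 85.6 CPM in libraries 1, 2 and 3. Ltf, a granule gene of the list, had 1 count in Gel 2 and 0 elsewhere. Macrophage markers summed to 2866 to 6552 CPM in Gel and 3401 to 7578 CPM in MgPA-Gel, and the top library of each group was replicate 2. Endothelial markers were highest in Gel 2 in 7 of 7 genes. Osteoclast markers summed to 8240 to 11650 CPM in Gel and to 9461, 2655 and 18570 CPM in MgPA-Gel 1, 2 and 3, lowest in MgPA-Gel 2. Summed T and NK cell markers were at 120 to 147 CPM in Gel and 115 to 203 CPM in MgPA-Gel. Their mean level (centred log2 CPM) was highest in MgPA-Gel 2 (0.595) and next in Gel 2 (0.48). It was lowest in Gel 1 (-0.62) and Gel 3 (-0.56). Of the 11 tested, 11 had a higher mean with MgPA-Gel, against 54.8% of all tested genes. The same held for 10 of 11 macrophage, 9 of 10 neutrophil and 8 of 8 muscle fibre markers. It held for 2 of 8 B cell and 0 of 7 endothelial markers, and the remaining marker lists lay between. Plasmacytoid dendritic cell markers, of which 8 were found and 5 tested, summed to 129 to 179 CPM in Gel and 120 to 459 CPM in MgPA-Gel. Their top was in MgPA-Gel 1, where Cox6a2, which muscle also makes, was at 291 CPM. Siglech, Ccr9 and Ly6d of this list, named after their values were seen, had 7 counts or fewer in every library. Dendritic cell markers, of which 7 were found and 6 tested, summed to 55.2 to 120 CPM in Gel and 72.3 to 183 CPM in MgPA-Gel, and their mean level (centred log2 CPM) was highest in Gel 2 (0.66) and next in MgPA-Gel 2 (0.34). Cd209a of this list had 0 counts. The part of these cell types in the levels of the interferon-stimulated genes was not tested.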

How the data were processed

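Poly-T selected RNA of 6 libraries was analysed, grouped by their titles. The authors deposited gene counts, whole and not normalized, and FPKM for the same 34538 genes. The submitters' processing notes list these tools without roles: edgeR 3.22.5, DESeq2 1.20.0, featureCounts 1.5.0-p3, HISAT2 2.0.5, StringTie 1.3.3b and fastp. The genome build and strandedness are not given in the sources used here. Blank rows of counts (11692) were left out, and 2 unnamed columns of values were not used.

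MgPA-Gel was compared with Gel by the quasi-likelihood test of edgeR 4.0.16 (R 4.3.3, robust glmQLFit, TMM factors) on the counts of the 14818 genes kept by filterByExpr. The test was two-sided, and a gene was called at a Benjamini-Hochberg adjusted p under 0.05. Between libraries of a group the coefficient of variation beyond counting error was 41.3% at the common dispersion, and this spread limits the test more than depth does in genes of many counts. Alternatives were median-of-ratios factors, no filter, DESeq2 1.42.0, limma 3.58.1 on log2(FPKM + 1) and log2(FPKM + 0.1), a replicate block, each library left out, and Gel 1 with MgPA-Gel 1 left out. FPKM understates changes of low genes on these log scales. CPM and mean levels (log2 with a prior count of 2) use TMM-adjusted library sizes.

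The members, the gene lists and the order counts were chosen with earlier results of these data known. Every member is named. Of each other list, genes past the threshold, the 4 tested genes of highest mean FPKM, Ifnb1, Ifng, Ifnar1 and Ifnar2 could be named, and 1 further gene of the rule is not reported here. Ifne, Cd274, Siglech, Ccr9, Ly6d, Cd209a and Ltf were named after their values were seen. Promoter windows are those of RefSeq, build GRCr8, matched by symbol, and their coordinates are not those of the deposited tables.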

Additional observations from a re-analysis of the deposited data

How the results depend on the processing

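None of the 32 genes passed the threshold under any of the 13 alternatives, with a smallest adjusted p of 0.822 (Oas3, DESeq2). DESeq2 gave neither a p nor an adjusted p for Ifit3. Over all genes, DESeq2 called 10, and with each library left out in turn edgeR called 0 to 2 (2 without MgPA-Gel 2). Genes of the 32 whose groups did not overlap numbered 1 to 11 with each library left out: 11 without Gel 2 (16.5% of all genes), 6 without MgPA-Gel 3 (17.8%) and 3 without MgPA-Gel 1 (19.1%). They numbered 3 without Gel 1 and MgPA-Gel 1 (28.1%), and fewer libraries overlap less often by construction. The median log2 fold change ran from 0.035 to 0.43 with each library left out.

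Of the 32 log2 fold changes, 16 kept their sign in every setting. Leaving out single libraries reversed the others, over the ranges -0.27 to 0.76 for Irf7, -0.89 to 0.36 for Mx2, -0.27 to 0.51 for Cmpk2, -0.28 to 0.0718 for Dhx58, -1.28 to 0.25 for Ifit1, -0.43 to 0.30 for Mx1, -0.72 to 0.61 for Oas2, -0.59 to 0.27 for Usp18, -0.17 to 0.22 for Bst2, -0.28 to 0.37 for Ifi44, -0.33 to 0.35 for Ifi27, -0.0156 to 0.32 for Irf9, -0.041 to 0.44 for Parp14, -0.19 to 0.33 for Xaf1, -0.43 to 1.40 for Cxcl9 and -0.25 to 3.53 for Oas3. Without Gel 1 and MgPA-Gel 1, Cxcl9 was at -0.45, Irf7 at -0.10 and Cmpk2 at 0.27. With limma on log2(FPKM + 1) and log2(FPKM + 0.1), Cmpk2 was at 0.0106 and 0.0327 and Bst2 at 0.0038 and 0.0042, and with the replicate block they were at 0.0381 and 0.0106. The cause was not tested. The labels give no shared batch or animal for equal numbers, so the numbers were not taken as pairs in the main fit. Libraries of the same number had correlations of deviations of 0.25, 0.20 and -0.03. Gel 1 and Gel 2 each correlated best with the MgPA-Gel library of the same number, and Gel 3 with MgPA-Gel 2 (0.059). These correlations do not settle whether the numbers mark pairs. The replicate block called 0 genes, left 464 at an unadjusted p under 0.05 against 389, of which 5 were among the 32 against 1, and gave the 32 genes a median of 0.22 with 22 higher.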
